A study of Homo sapiens with 32 samples.

Results

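The comparison described here set MDA-MB-468 cells treated with salinomycin (Sal) for 24 h against control cells of the same time point. It rests on 8 libraries, 4 of Sal and 4 of control, of the 32 in the series, and they were taken by treatment and time point, not by any measured value. MDA-MB-468 is an established human breast tumour line of the triple-negative type. Control cells received PBS, Sal cells received 0.5 μM Sal, and the drug stocks of the study were made in DMSO, so that drug and solvent cannot be told apart here. The series also holds dasatinib (Das, 15 μM), the combination (S + D) and a 72 h time point, and these are used below only where the Sal response at 24 h is set against them. All results come from 1 cell line, and whether the cultures behind the 4 libraries of a group were grown on separate days is not given.

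Sal is a polyether ionophore, a small molecule that binds alkali metal ions and carries them across membranes. Gene programmes that respond to stress in the endoplasmic reticulum (ER) and to sterol supply have well described regulators. SREBF2 is cut in the Golgi when sterol in the ER is low and then switches on cholesterol synthesis and uptake. ATF6, ERN1 and their targets are a part of the unfolded protein response, which raises chaperones and folding enzymes of the ER. ATF4 is translated when initiation factor eIF2 is phosphorylated and switches on amino acid synthesis and transport, tRNA charging and stress genes such as DDIT3.

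Each library held from 28721753 to 42769687 counts in the 48804 genes listed, and 16357 genes passed the filter on low counts. Levels are given as CPM (each count scaled to a common library total with edgeR's TMM factors), and they depend on gene length, so they are compared between libraries and not between genes. The 13 markers listed for a basal breast epithelial line summed to 12000 to 12600 CPM in control and 9460 to 11900 CPM in Sal. The largest parts were EGFR (control mean 4820 CPM) and the keratins KRT19 (2710), KRT7 (1290) and KRT8 (1210). KRT5 had a control mean of 870 CPM, but KRT6A, KRT6B, KRT14, KRT16 and KRT17 had only 1.51 to 39.9 CPM. The sum therefore does not show the basal type. Of the 13, 8 fell, KRT5 among them (log2 fold change -0.84). In bulk RNA, fewer cells of a type and less RNA per cell cannot be told apart, and the part of these markers in the results below was not tested. Of the receptors that define the triple-negative type, PGR had at most 1 count in a library and ESR1 from 3.64 to 8.42 CPM, while ERBB2 was measured at 96.5 to 121 CPM. Fibroblast markers summed to between 21.2 and 58.3 CPM, most of it COL1A1 (18.2 to 57.4 CPM), with DCN and LUM at 0. Leukocyte markers summed to between 12.1 and 16.1 CPM, most of it CD14 (11.1 to 14.8 CPM), with MS4A1 at 0. Endothelial markers, without PECAM1, summed to between 1.74 and 4.39 CPM, with KDR at 1.27 to 3.48 CPM and CLDN5 at 0.

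Each condition has 3 libraries with a replicate number, 1 to 3, and 1 without. The unnumbered libraries of control and Sal deviated together from their group means, with a correlation of 0.63 across genes, which are not independent replicates. They were therefore treated as a batch, and the fit over the 16 libraries of 24 h carried a batch term. On the first principal component, with 51.8% of the variance, the unnumbered Sal library lay at -82.2, the unnumbered control at -6.00 and all other libraries of both groups between -4.65 and 31.5. Sal replicate 2 also stood apart from replicates 1 and 3, with a chi-square per gene of 19.0 and 19.6 where replicates 1 and 3 gave 3.22. For some of the genes below, the response of the numbered libraries and that of the unnumbered pair stand beside the fitted value. The unnumbered pair has 1 library a group, so its own value rests on the assumption that it varies as the numbered libraries do.

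Sal shifted many genes by a small amount and few by a large one. At an adjusted p under 0.01 (Benjamini-Hochberg, from edgeR's quasi-likelihood test), 1855 genes were higher with Sal (11.3% of those tested) and 1773 were lower (10.8%). With an absolute log2 fold change above 1.5 as well, 154 genes were higher (0.941%) and 11 lower (0.0672%). Below, a gene rose or fell when it passed the adjusted p, and it passed both cutoffs when it also met the fold change. The median log2 fold change over all genes tested was -0.03. Of the 154 genes, 109 are protein coding and 32 are long noncoding RNAs, 150 were higher in each Sal library than in the control of the same number, and in 133 every Sal library lay above every control. Of all genes tested, 11.1% had every Sal library above every control and 11.4% had every one below, and the 154 were chosen on the same contrast. From the numbered libraries alone, 129 of the 154 and 7 of the 11 passed the adjusted p in the same direction. Without the batch term, 117 genes were higher and 1 lower past both cutoffs, and 745 and 364 at the adjusted p alone. The 11 falls became 4 without the unnumbered Sal library and 25 without Sal replicate 2, and the 1773 became 1046 without the unnumbered Sal library.

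**Figure D1:**
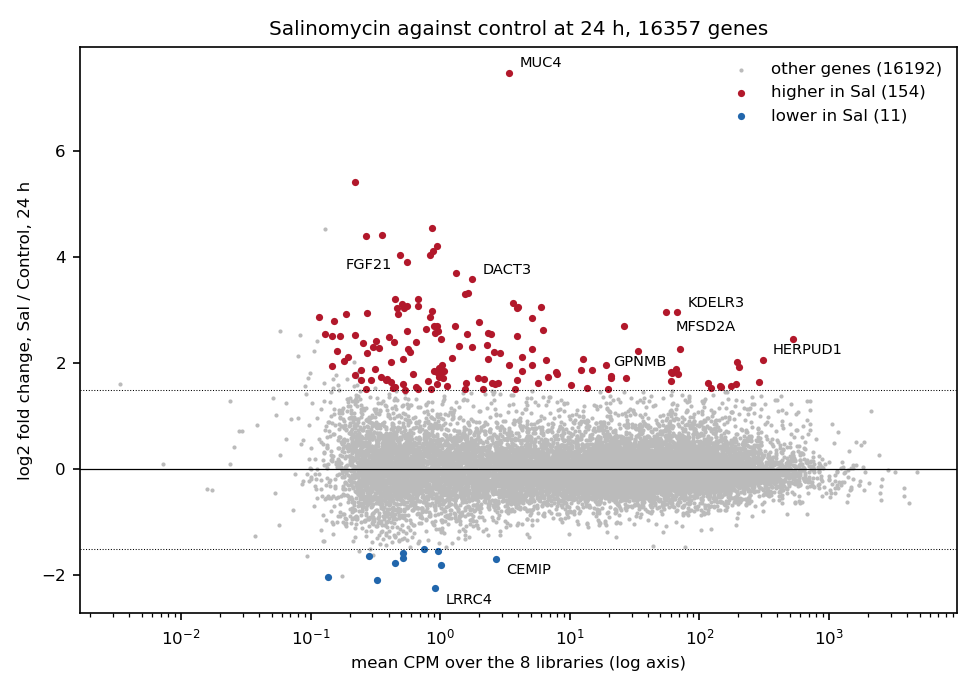
Log2 fold change of Sal over control at 24 h (vertical axis) against the mean CPM over the 8 libraries (horizontal log axis), with 1 point for each of the 16357 genes tested. Red points are the 154 genes higher and blue points the 11 lower past both cutoffs, with the fold cutoffs drawn at 1.5 and -1.5; the blue points have means up to 2.69 CPM (CEMIP), while the red ones reach 527 CPM (ARF4).

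The 12 largest rises among genes of at least 1 CPM ranged from a log2 fold change of 2.86 (MYO7A) to 7.48 (MUC4). MUC4, a membrane mucin (chr3:195473636-195538844, GRCh37), had 1 count in the unnumbered control and 3, 1 and 0 in control replicates 1 to 3. With Sal it had 839 counts in the unnumbered library and 43, 33 and 68 in replicates 1 to 3. Every Sal library lay above every control, and the unnumbered one stood far above the rest. The ratio of counts per library total was 209 (95% exact interval 89.2 to 645, which covers counting error only), 37.6 (14.4 to 140) in the numbered libraries and 931 (167 to 36800) in the unnumbered pair. DACT3, an inhibitor of Wnt signalling (chr19:47150808-47164439), had 0.399, 0.242, 0.165 and 0.221 CPM in control (unnumbered, then replicates 1 to 3) and 6.79, 2.33, 1.40 and 2.63 with Sal. Its log2 fold change was 3.59 (SE 0.36, adjusted p = 3.3e-07), and the numbered and unnumbered responses, 3.35 and 4.07, were not called different (adjusted p = 0.42).

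KDELR3, a receptor that returns ER proteins from the Golgi (chr22:38864083-38879452), had 15.4, 15.0, 13.4 and 14.7 CPM in control and 198, 86.1, 91.1 and 102 with Sal, the same library order being kept throughout. Its log2 fold change was 2.97 (SE 0.14, adjusted p = 1.3e-11), a 7.83-fold rise. MFSD2A, a carrier of lysophospholipids with long fatty acids (chr1:40420784-40435640), went from 12.7, 10.9, 10.3 and 11.8 CPM to 191, 67.8, 55.8 and 78.7 (log2 fold change 2.96, SE 0.17, adjusted p = 1.1e-10). In both genes the 3 numbered Sal libraries lay far above all controls, and the unnumbered Sal library was higher still. The remaining genes of this group were YPEL4 (3.71), NKX6-1 (3.32), NLRP1 (3.30), DQX1 (3.14), BAIAP3 (3.06), PPM1K (3.06) and GFY (3.05). Their control means were between 0.160 and 1.24 CPM, and YPEL4 lost its call without the batch term.

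The 8 largest falls were smaller, from a log2 fold change of -1.29 (HPDL) to -1.80 (EGR3). EGR3, an immediate early transcription factor (chr8:22545172-22550993), had 0.752, 1.67, 1.68 and 2.21 CPM in control and 0.191, 0.532, 0.489 and 0.594 with Sal (SE 0.26, adjusted p = 2.6e-05). CEMIP, which takes part in hyaluronan breakdown (chr15:81071684-81244117), had 2.82, 3.91, 4.43 and 5.01 CPM in control and 0.300, 1.51, 1.96 and 1.58 with Sal (log2 fold change -1.69, SE 0.24, adjusted p = 2.0e-05). Without the batch term the call was lost for EGR3 (adjusted p = 0.012) and for CEMIP (adjusted p = 0.0145). The transcription factor FOXQ1 (chr6:1312333-1314993) had 58.7, 63.4, 65.9 and 65.7 CPM in control and 14, 28.4, 27.8 and 25.8 with Sal (log2 fold change -1.45, SE 0.11, adjusted p = 1.2e-08). The groups were far apart, and the unnumbered Sal library was the lowest. THBS1, described with the matrix genes below, was among these 8, and IL7R (-1.40), C11orf86 (-1.31) and the lncRNA ENSG00000259362 (-1.48) also fell. IL7R lost its call without the unnumbered control, and both IL7R and the lncRNA lost theirs without the batch term.

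LRRC4, which codes for a leucine-rich repeat protein of the cell surface (chr7:127667124-127672160), had 1.25, 1.51, 1.54 and 1.67 CPM in control and 0.0273, 0.296, 0.734 and 0.311 with Sal. Its log2 fold change was -2.24 (SE 0.36, adjusted p = 1.8e-04), with -1.85 in the numbered libraries. ESR2, which codes for oestrogen receptor beta, was near the limit of detection in every library. It had 4, 2, 0 and 0 counts in control and 9, 0, 1 and 1 with Sal, and the groups did not separate (exact two-sided permutation test, p = 0.71; the smallest p that 4 against 4 allows is 0.0286).

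Most genes of sterol synthesis and uptake rose. Of 26 members listed, 25 were tested and NPC1L1 was below the filter. Of the 25, 22 rose and 0 fell, where 11.3% and 10.8% of all genes did, with a median log2 fold change of 0.80. The numbered libraries gave a median of 0.78 and the unnumbered pair 0.71, and 23 rose in the numbered libraries alone. The 6 members with the largest rise were MVD (1.31), HMGCS1 (1.31), INSIG1 (1.18), TM7SF2 (1.09), SQLE (1.08) and IDI1 (0.99). Among those that did not pass the test were PMVK (0.01), a kinase of the mevalonate pathway, and CYP51A1 (0.55, adjusted p = 0.011), the sterol demethylase.

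HMGCS1, which makes HMG-CoA at the start of the pathway (chr5:43287572-43313614), had 339, 191, 183 and 181 CPM in control and 642, 487, 546 and 517 with Sal. The fold was 2.47 (log2 fold change 1.31, SE 0.16, adjusted p = 4.4e-06). The unnumbered control was the highest control, and the response was 1.48 in the numbered libraries against 0.92 in the unnumbered pair. Of the exon bases of HMGCS1, 37.7% overlap another annotated gene, and whether counting used the strand is not given. SQLE, the squalene epoxidase that commits the pathway to sterols (chr8:126010739-126034525), had narrow groups, at 118, 108, 111 and 108 CPM in control and 224, 230, 247 and 246 with Sal (2.11-fold, SE 0.10, adjusted p = 2.1e-07). MVD, the mevalonate pathway decarboxylase, went from 330, 176, 198 and 200 CPM to 923, 462, 381 and 510 (adjusted p = 8.7e-08). INSIG1, which holds the SREBF2 escort protein in the ER, went from 87.8, 59.0, 61.6 and 56.9 CPM to 165, 138, 148 and 148 (2.27-fold, adjusted p = 3.9e-07).

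The regulator SREBF2 also passed the test. SREBF2 had 449, 389, 410 and 415 CPM in control and 465, 518, 449 and 520 with Sal (log2 fold change 0.23, SE 0.06, adjusted p = 0.0072), and its response was 0.29 in the numbered libraries and 0.05 in the unnumbered pair. The response differed between the batches in 4 of the 25 members, where 13.5% of all genes differed. HMGCS1 and INSIG1 had the smaller response and NSDHL the larger one in the unnumbered pair.

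Fatty acid synthesis followed in part. Of 12 members tested (of 14 listed), 7 rose and 0 fell (median 0.47), where 11.3% and 10.8% of all genes did. The risen members include MVK (0.81), which also belongs to the sterol list and is an enzyme of the mevalonate pathway, not of fatty acid synthesis. ACACA was not matched to the genes counted, and THRSP was below the filter. SCD, the desaturase that makes oleic acid (chr10:102106990-102124583), had 378, 455, 482 and 470 CPM in control and 749, 1006, 1063 and 1062 with Sal (2.16-fold; log2 fold change 1.11, SE 0.06, adjusted p = 2.6e-11). FASN, the fatty acid synthase, moved less, from 1566, 1243, 1514 and 1583 CPM to 1811, 2331, 1644 and 2329 (log2 fold change 0.46, adjusted p = 0.0031). ELOVL6 (0.71), ELOVL5 (0.50), FADS2 (0.49) and FADS1 (0.47) rose, while SREBF1 (0.22, adjusted p = 0.084) and ACLY (0.14, adjusted p = 0.12) did not pass the test. Without the batch term 2 members rose, and FADS1 lost its call in 2 of the fits with 1 library removed. Of 8 genes tested in a list of LXR targets, which holds the cholesterol exporters, 0 rose and 1 fell, where 10.8% of all genes fell. The fall was that of MYLIP (-0.43), a ubiquitin ligase and no exporter, whose call was lost in 4 of the 8 fits made with 1 library removed.

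**Figure D2:**
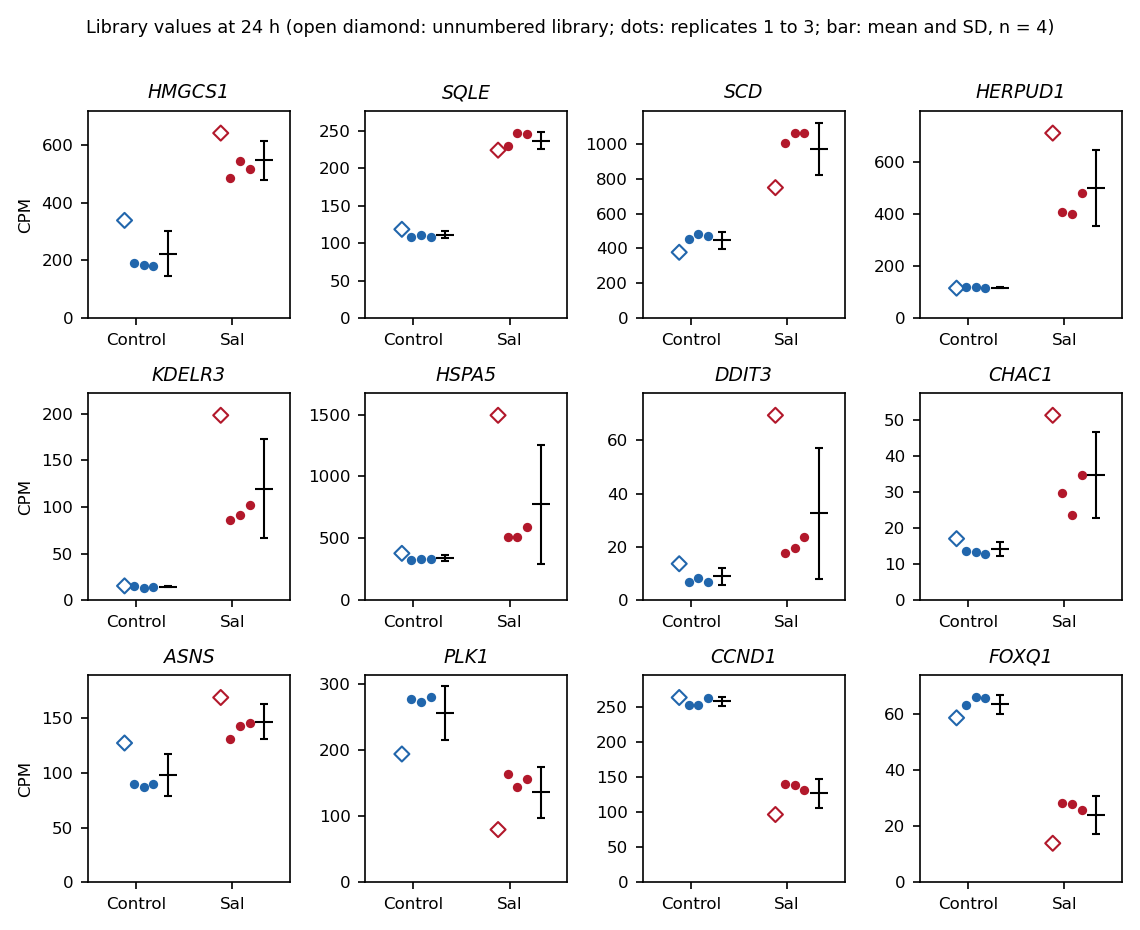
CPM of 12 genes in each of the 8 libraries, control in blue and Sal in red, on linear axes from 0; open diamonds are the unnumbered libraries, dots are replicates 1 to 3, and the black bar gives the mean and SD of 4. In SQLE and SCD the unnumbered Sal library, at 224 and 749 CPM, is the lowest of its group, whereas in HSPA5 and DDIT3 the unnumbered Sal library, at 1494 and 69.4 CPM, stands far above the other 3.

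Promoters of the sterol list were searched for the letters TCACNCCAC, a form of the sterol regulatory element, on both strands from 250 bases before to 50 bases after the start of each gene (RefSeq, GRCh38.p14). The letters occurred in 1 of 16 risen members with a promoter in the table, SREBF2 itself, in 0 of 2 members that did not rise, and in 1.15% of all 27305 promoters. The SREBF2 promoter is printed because no other of the 18 members searched holds the match, here in capitals on the plus strand from -133 to -125 relative to the start.
SREBF2 (chr22:41832855-41833154, plus strand): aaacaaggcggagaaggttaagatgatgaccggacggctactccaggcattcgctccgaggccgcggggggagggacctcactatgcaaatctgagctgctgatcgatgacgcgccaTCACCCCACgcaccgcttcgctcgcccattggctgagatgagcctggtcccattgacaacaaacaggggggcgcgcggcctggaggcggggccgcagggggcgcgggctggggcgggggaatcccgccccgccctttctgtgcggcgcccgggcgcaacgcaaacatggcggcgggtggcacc

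Most genes of the ER and its unfolded protein response rose, with the unnumbered pair further up. Of 30 members tested, 21 rose and 0 fell, where 11.3% and 10.8% of all genes did, with a median log2 fold change of 0.47. The median was 0.29 in the numbered libraries, of which 19 members rose, and 0.94 in the unnumbered pair. In 20 of the 30 members the 2 responses differed at an adjusted p under 0.01, and in all 20 the unnumbered pair was larger, against 13.5% of all genes whose responses differed. The largest rises after KDELR3 were HERPUD1 (2.07), DERL3 (1.96), SEC24D (1.88), HSPA5 (1.05) and SYVN1 (1.04). In a fit without the batch term 10 members rose, and in one of all 32 libraries 12 rose.

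HERPUD1, a membrane protein of ER-associated degradation (chr16:56966054-56978776), had 115, 120, 117 and 115 CPM in control and 710, 406, 399 and 480 with Sal (4.19-fold; log2 fold change 2.07, SE 0.10, adjusted p = 2.3e-11). SEC24D, which selects cargo for vesicles leaving the ER (chr4:119643978-119759838), had 28.9, 28.1, 28.8 and 27.8 CPM in control and 115, 97, 98.6 and 108 with Sal (3.69-fold, adjusted p = 1.3e-11). SEC24D rose evenly, 1.84 in the numbered and 2.00 in the unnumbered libraries, and these were not called different (adjusted p = 0.29). DERL3, a retrotranslocation factor, has 77.0% of its exon bases in overlap with another gene, so its reads may not be its own.

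The libraries are given for 3 chaperones of the ER. HSPA5, the main Hsp70 of the ER (chr9:127997132-128003661), had 379, 323, 331 and 329 CPM in control and 1494, 510, 508 and 595 with Sal. Its log2 fold change was 1.05 (SE 0.15, adjusted p = 2.0e-05), made up of 0.71 in the numbered and 1.98 in the unnumbered libraries, a difference of 1.27 (SE 0.11, adjusted p = 5.6e-06). Its call was lost without the batch term (adjusted p = 0.013). CALR, a lectin chaperone, had 1091, 1411, 1411 and 1432 CPM in control and 2461, 1727, 1559 and 1888 with Sal (log2 fold change 0.51, adjusted p = 0.0012). HSP90B1, the Hsp90 of the ER, had 871, 821, 776 and 773 CPM in control and 1408, 766, 840 and 800 with Sal. In HSP90B1 the numbered libraries overlapped the controls, with a response of 0.02 against 0.69 in the unnumbered pair, and the gene did not pass the test (adjusted p = 0.090). Neither XBP1 (0.20), ERN1 (0.18), PDIA4 (0.06), CANX (0.04) nor PDIA6 (-0.02) passed it, while the sensor ATF6 rose by 0.53.

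**Figure D3:**
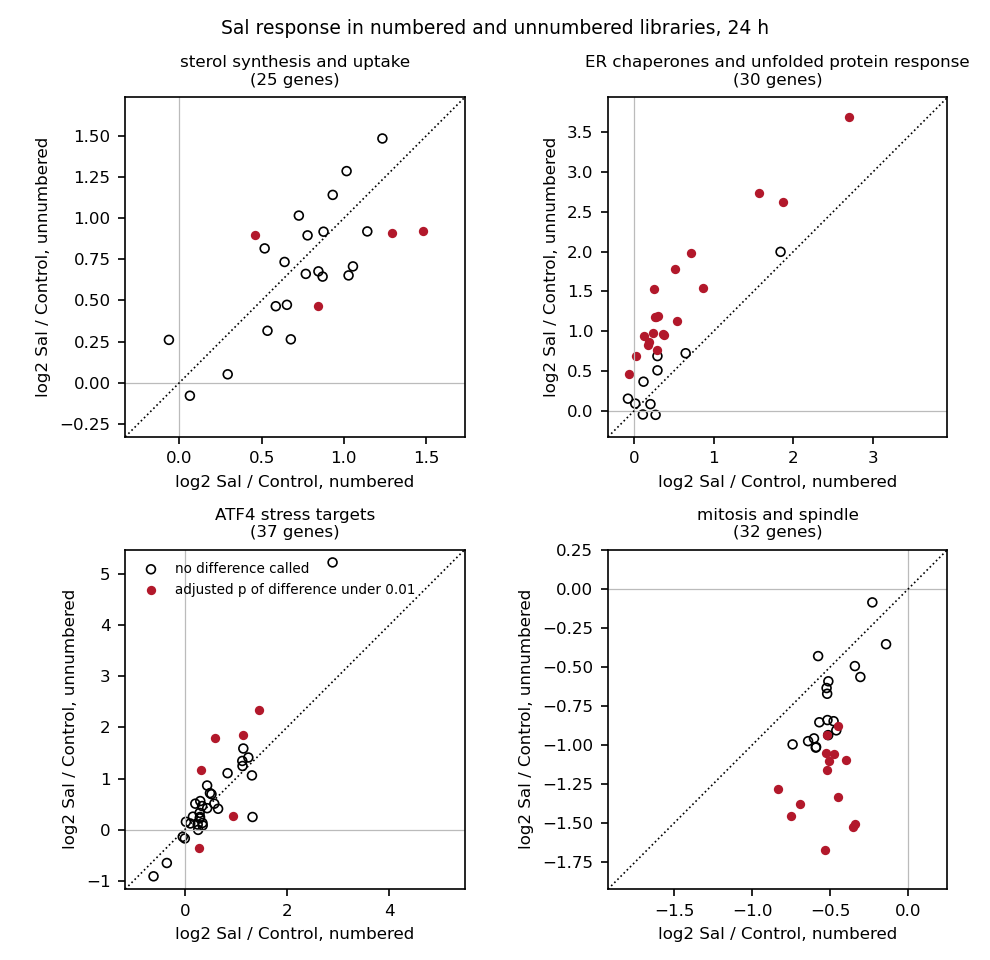
Log2 fold change of Sal over control in the unnumbered pair (vertical axis) against that in the numbered libraries (horizontal axis) for the members of 4 gene lists; the dotted line marks equal responses, and red points are members whose responses differed at an adjusted p under 0.01. Sterol genes scatter around the line with 4 red of 25, and ER genes lie above it with 20 red of 30.

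Promoters of the ER list were searched for the ER stress response element, spelled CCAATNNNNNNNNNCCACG, in the same window and on both strands. It was found in 2 of 19 risen members with a promoter, CALR and HSPA5, and in 5 of 8 members that did not rise, CANX, CRELD2, ERO1B, HSP90B1 and XBP1. Of all promoters, 0.08% held it.

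Stress targets of ATF4 rose in the majority. Of 37 members tested, 25 rose and 1 fell, where 11.3% and 10.8% of all genes did. The median was 0.43, with 0.35 in the numbered libraries and 0.42 in the unnumbered pair. FGF21 (4.05), a secreted stress hormone, DDIT3 (1.71), the transcription factor CHOP, ALDH18A1 (1.33), which makes proline precursors, STC2 (1.29), a secreted glycoprotein, CHAC1 (1.26), which degrades glutathione, and ALDH1L2 (1.25), an enzyme of mitochondrial folate metabolism, rose most. The enzyme of asparagine synthesis ASNS (0.59), the pseudokinase TRIB3 (0.56) and the transporters SLC7A11 (0.77) and SLC1A5 (0.37) also rose. The enzymes of serine synthesis were uneven, with PSAT1 higher (0.43) and PHGDH (0.18) and PSPH (-0.06) not passing the test. ATF5, itself a transcription factor of this family, fell by 0.69 (adjusted p = 2.1e-06), although the unnumbered control lay below 2 of the Sal libraries. Of the list, 9 rose and 0 fell without the batch term.

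FGF21 had 3, 1, 3 and 0 counts in control and 102, 6, 12 and 13 with Sal. The ratio of counts per library total was 20.2 (95% exact interval 9.53 to 51.2), and 8.09 (2.86 to 31.5) in the numbered libraries. DDIT3 (chr12:57910371-57915520) had 13.7, 7.02, 8.45 and 6.74 CPM in control and 69.4, 17.7, 19.6 and 23.7 with Sal (3.28-fold; log2 fold change 1.71, SE 0.14, adjusted p = 3.2e-08). All Sal libraries were above all controls, and the unnumbered libraries were the highest in both groups. The DDIT3 responses were 1.46 and 2.34 (difference 0.89, SE 0.18, adjusted p = 0.0019), and the call was lost without the batch term. Of its exon bases, 31.6% overlap another gene. CHAC1 (chr15:41245160-41248710) had 17.1, 13.6, 13.4 and 12.9 CPM in control and 51.4, 29.7, 23.6 and 34.9 with Sal (2.39-fold, adjusted p = 2.4e-08). ASNS (chr7:97480989-97501854) had 127, 89.7, 87.2 and 89.8 CPM in control and 169, 131, 143 and 146 with Sal (1.51-fold, adjusted p = 2.9e-06). ATF3, a further stress transcription factor, had 13.9, 9.87, 10.4 and 9.58 CPM in control and 48.0, 14, 15.9 and 15.3 with Sal (adjusted p = 3.0e-04), so that the numbered response of 0.60 was far below the unnumbered 1.79.

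Promoters of this list were searched for TGATGNAA, a form of the C/EBP-ATF response element to which ATF4 is known to bind with C/EBP partners. The letters occurred in 4 of 19 risen members with a promoter (ASNS, ATF3, CHAC1 and FGF21), in 2 of 10 other members (SLC3A2 and SLC7A1) and in 3.67% of all promoters. The 3 promoters printed are those of the matching genes with the largest rises, and the match is in capitals. It lies on the minus strand from -54 to -47 in FGF21 and from -209 to -202 in CHAC1, where the plus strand shows the reverse complement, and on the plus strand from -191 to -184 in ATF3.
FGF21 (chr19:48755274-48755573, plus strand): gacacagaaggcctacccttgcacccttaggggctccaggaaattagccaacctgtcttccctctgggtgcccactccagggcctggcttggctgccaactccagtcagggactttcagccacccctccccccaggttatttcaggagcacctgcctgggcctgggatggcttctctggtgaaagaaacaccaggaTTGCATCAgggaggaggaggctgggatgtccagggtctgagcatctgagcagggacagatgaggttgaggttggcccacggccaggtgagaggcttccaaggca
CHAC1 (chr15:40953221-40953520, plus strand): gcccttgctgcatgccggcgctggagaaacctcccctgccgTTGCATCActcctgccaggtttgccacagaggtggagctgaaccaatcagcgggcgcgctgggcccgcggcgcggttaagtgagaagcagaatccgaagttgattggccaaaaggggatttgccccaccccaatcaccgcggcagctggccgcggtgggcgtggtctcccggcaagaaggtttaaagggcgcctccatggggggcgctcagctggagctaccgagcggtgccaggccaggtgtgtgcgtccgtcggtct
ATF3 (chr1:212565157-212565456, plus strand): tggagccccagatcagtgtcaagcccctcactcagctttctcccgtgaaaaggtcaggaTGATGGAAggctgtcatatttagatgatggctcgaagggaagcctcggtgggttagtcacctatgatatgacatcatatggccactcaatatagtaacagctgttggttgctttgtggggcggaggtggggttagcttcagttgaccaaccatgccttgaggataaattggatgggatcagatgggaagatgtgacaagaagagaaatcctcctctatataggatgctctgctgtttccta

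Cytosolic tRNA synthetases, which charge tRNAs with amino acids and include known ATF4 targets, rose in part. Of 20 tested, 10 rose and 0 fell (median 0.21), where 11.3% and 10.8% of all genes did. Without the batch term 6 rose. EPRS1, the glutamate and proline enzyme, had 534, 542, 526 and 518 CPM in control and 988, 813, 886 and 862 with Sal (1.67-fold; log2 fold change 0.74, SE 0.06, adjusted p = 1.8e-08). WARS1 (0.74), GARS1 (0.61), RARS1 (0.55), IARS1 (0.52) and SARS1 (0.38) rose, whereas LARS1 (0.02) and VARS1 (-0.05) did not pass the test.

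Lysosomal and autophagy genes did not move as one. Of 42 tested, 11 rose and 4 fell (median 0.11) where 11.3% and 10.8% of all genes did. GPNMB, a lysosomal membrane glycoprotein (chr7:23275586-23314727), had 29.8, 26, 27.2 and 26.3 CPM in control and 99.0, 86.2, 92.7 and 104 with Sal (3.50-fold; log2 fold change 1.81, SE 0.11, adjusted p = 3.4e-10). WIPI1, which acts in autophagosome formation, had 33.1, 26.9, 27.6 and 27.7 CPM in control and 120, 77.0, 81.9 and 88.2 with Sal (3.16-fold, adjusted p = 1.9e-11), and 28.1% of its exon bases overlap another gene. Neither response was called different between the batches (adjusted p = 0.61 for GPNMB and 0.084 for WIPI1). MAP1LC3B (0.96), NEU1 (0.80), RRAGD (0.66) and SQSTM1 (0.41) rose. The regulators TFEB (-0.13) and TFE3 (0.01) did not pass the test. The cathepsin CTSB fell from 249, 251, 254 and 269 CPM to 139, 153, 134 and 148 (log2 fold change -0.83, adjusted p = 2.9e-06). The counts were 4 and 1 without the batch term.

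Among genes of iron handling, 4 of 14 tested rose and 0 fell. FTL, the ferritin light chain (chr19:49468566-49470136), had 147, 144, 137 and 143 CPM in control and 576, 247, 247 and 279 with Sal (2.20-fold; log2 fold change 1.14, SE 0.12, adjusted p = 1.1e-06), with 0.87 in the numbered and 1.97 in the unnumbered libraries. The heavy chain FTH1 did not pass the test (0.08, adjusted p = 0.50), and 63.2% of its exon bases overlap another gene. The importer SLC11A2 (0.40) and the zinc and iron importer SLC39A14 (0.34) rose. Of NRF2 antioxidant targets, 2 of 22 rose, FTL and SLC7A11, and 1 fell, AKR1B10 (-0.73), no larger a share than the 11.3% and 10.8% of all genes. Of metallothioneins and zinc transporters, 0 of 8 rose and 2 fell, MT2A (-0.45) and SLC39A10 (-0.56).

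Most genes of mitosis fell. Of 32 tested, 28 fell and 0 rose (median -0.60), where 10.8% and 11.3% of all genes did. The 4 that did not pass the test, TTK, MAD2L1, NUF2 and HMMR, were between -0.19 and -0.54. The median was -0.52 in the numbered libraries, where 31 fell, and -0.97 in the unnumbered pair. In 14 members the response differed between the batches, always larger in the unnumbered pair, where 13.5% of all genes differed. PLK1, the polo-like kinase of mitotic entry (chr16:23688977-23701688), had 194, 277, 273 and 279 CPM in control and 79.8, 164, 143 and 157 with Sal (0.527-fold; log2 fold change -0.92, SE 0.13, adjusted p = 3.1e-05). KIF20A, a kinesin of cytokinesis, had 268, 361, 343 and 348 CPM in control and 97.8, 215, 211 and 198 with Sal (log2 fold change -0.89, adjusted p = 1.8e-04). The unnumbered library was the lowest of its group in both genes and both conditions, and no Sal library reached a control of either batch. ANLN (-0.84), CDC20 (-0.79), CENPE (-0.77) and CCNB1 (-0.71) followed. The count of 28 became 15 without control replicate 1, 5 without the batch term and 3 in a fit of all 32 libraries.

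About as many genes of DNA replication fell as did not pass the test. Of 38 tested, 19 fell and 0 rose (median -0.27), where 10.8% and 11.3% of all genes did. The median was -0.28 in the numbered libraries, where 26 fell, and -0.23 in the unnumbered pair. RRM2, the small subunit of ribonucleotide reductase (chr2:10260825-10351851), had 551, 724, 689 and 682 CPM in control and 324, 476, 476 and 435 with Sal (0.644-fold; log2 fold change -0.63, SE 0.08, adjusted p = 4.2e-06). GINS1 (-0.58), MCM10 (-0.57), TYMS (-0.50; 47.9% of its exon bases shared), POLE (-0.44) and MCM7 (-0.43) fell, and of the helicase subunits MCM6 (-0.17, adjusted p = 0.015) did not pass the test. CDT1 (0.12) and TK1 (-0.11) did not pass it either. The count of 19 became 8 without the batch term and 1 in the fit of all 32 libraries. Replication-dependent histones, whose transcripts mostly lack poly(A) tails, were too few to describe, with 9 of 29 listed genes tested and 2 lower.

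Of 28 cyclins, kinases, inhibitors and E2F factors of G1, 13 fell and 1 rose (median -0.29), where 10.8% and 11.3% of all genes did. CCND1, cyclin D1 (chr11:69455924-69469242), had 264, 254, 253 and 264 CPM in control and 97, 140, 139 and 132 with Sal (0.482-fold; log2 fold change -1.05, SE 0.09, adjusted p = 6.0e-08). MYC (chr8:128747680-128755197) had 148, 128, 125 and 132 CPM in control and 55.8, 83.9, 74.7 and 81.5 with Sal (0.546-fold, adjusted p = 1.1e-06). In both genes the groups were far apart and the unnumbered Sal library was the lowest. The inhibitor CDKN1A rose (0.46, adjusted p = 0.0039), with 0.25 in the numbered libraries (adjusted p = 0.030) and 1.01 in the unnumbered pair. CDK4 (-0.07), CDK6 (-0.09), CDKN1B (0.20) and RB1 (0.75, adjusted p = 0.013) did not pass the test. The falls numbered 6 without the batch term, and in the fit of all 32 libraries 5.

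Immediate early genes and feedback genes of the ERK pathway were taken as 1 list. Of 25 tested, 8 fell and 3 rose (median -0.35), where 10.8% and 11.3% of all genes did. The rises were FOSB, DUSP1 and JUND (0.42), the last named after its value was seen. The inhibitor SPRY4 had 30.0, 24.7, 25.4 and 27.1 CPM in control and 8.80, 13.3, 14 and 11.5 with Sal (0.440-fold; log2 fold change -1.19, SE 0.12, adjusted p = 4.6e-07). The ERK phosphatase DUSP6 went from 11.5, 12.8, 11.6 and 11.1 CPM to 3.62, 7.54, 7.89 and 6.87 (log2 fold change -0.93, adjusted p = 2.1e-04), with -0.67 and -1.66 in the 2 batches. FOSB rose instead, from 9.91, 3.63, 4.62 and 4.73 CPM to 56.8, 13.5, 11 and 14.3 (3.66-fold, adjusted p = 1.2e-07). DUSP1 had 9.19, 5.21, 6.47 and 6.05 CPM in control and 50.4, 7.36, 8.17 and 9.47 with Sal, so that 2 numbered Sal libraries lay below the unnumbered control. Its call (log2 fold change 1.18, SE 0.30, adjusted p = 0.0042) was lost without the batch term, with only the 8 libraries compared, and without the unnumbered control or control replicate 1. FOS (0.19), JUNB (0.08) and EGR1 (-0.76, adjusted p = 0.015) did not pass the test. For EGR1, every Sal library lay below every control, and the response was -0.76 in the numbered libraries (adjusted p = 3.0e-06) and in the unnumbered pair. The fit without the batch term gave 1 fall and 0 rises.

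Of Wnt targets and inhibitors, 8 of 13 tested fell and 0 rose, where 10.8% and 11.3% of all genes did. The median was -0.47, with -0.28 in the numbered libraries and -1.01 in the unnumbered pair. APCDD1, a Wnt inhibitor that is itself a target (chr18:10454632-10489946), had 28.4, 32.8, 33.7 and 34.2 CPM in control and 9.48, 21.1, 17.2 and 18.5 with Sal (0.494-fold; log2 fold change -1.02, SE 0.11, adjusted p = 1.3e-06). FZD7 (-0.72), a Wnt receptor, TCF7 (-0.70), a factor that works with beta-catenin, and AXIN2 (-0.54; 25.3% of its exon bases shared), a feedback inhibitor, fell. The count was 5 without the unnumbered control or Sal library or with only the 8 libraries compared, and 1 without the batch term. LEF1 and LGR5 were among the 6 listed genes below the filter.

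Of integrins, laminins and other matrix genes, 10 of 23 tested fell and 0 rose (median -0.34; -0.18 and -0.83 in the 2 batches), with 6 falls without the batch term. THBS1, thrombospondin 1 (chr15:39873280-39891667), had 185, 87.8, 88.9 and 91.3 CPM in control and 44.2, 42.7, 39.1 and 36.0 with Sal (0.361-fold; log2 fold change -1.47, SE 0.21, adjusted p = 2.4e-05). The Sal libraries were alike and the unnumbered control was far above the others, so that the response was -1.19 in the numbered and -2.06 in the unnumbered libraries. TNC, tenascin C, went from 22.4, 14.8, 19.2 and 16.1 CPM to 7.17, 11, 8.80 and 8.99 (log2 fold change -1.02, adjusted p = 6.0e-05). The integrins ITGB4 (-0.60) and ITGB5 (-0.45) fell, and ITGB1 (-0.07) and FN1 (-0.02) did not pass the test. Of 11 genes tested among cadherins, vimentin and factors of epithelial-mesenchymal transition, 2 rose and 1 fell, with a median of -0.02. The rises were VIM and ESRP1 (0.23) and the fall GRHL2 (-0.26), where 11.3% of all genes rose and 10.8% fell. GRHL2 lost its call in the numbered libraries alone and in 7 of the 8 fits with 1 library removed. VIM, vimentin, had 15.0, 7.69, 8.40 and 6.59 CPM in control and 28.3, 12.9, 15.7 and 15.0 with Sal (log2 fold change 0.93, adjusted p = 4.5e-07), 0.94 in the numbered and 0.92 in the unnumbered libraries, with 24.6% of its exon bases shared. CDH1 (-0.03) and EPCAM (-0.17) did not pass the test.

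Inflammatory and survival genes also gave mixed counts, where 11.3% of all genes rose and 10.8% fell. Of 20 tested in a list of chemokines, cytokines and NF-kappaB genes, 5 fell and 1 rose. The falls were CXCL8, LIF (-0.69), NFKBIA (-0.50), CXCL16 (-0.48) and BIRC3 (-0.48), of which the last 2 kept their call in each fit with 1 library removed. The rise of IL23A (1.25) was lost in 6 of those 8 fits. CXCL8 had 11.3, 2.30, 1.65 and 1.67 CPM in control and 2.51, 1.45, 1.33 and 0.905 with Sal, and its call (log2 fold change -1.17, SE 0.27, adjusted p = 0.0021) was lost without the unnumbered control, without the unnumbered Sal library and in the numbered libraries alone. Of 31 interferon-stimulated and MHC class I genes, 8 fell, among them OAS3 (-0.64) and MX1 (-0.58), and 3 rose, STAT2 (0.85), IRF7 (0.57) and IFIT2 (0.46). IRF7 lost its call in the numbered libraries alone and without the batch term, and without the batch term 3 of the list fell and 1 rose. Of 15 members of the BCL2 family, 6 fell and 0 rose, both inhibitors of apoptosis such as BCL2L1 (-0.41) and activators such as BID (-0.57). None of the BCL2 family fell without the batch term, and 3 fell with only the 8 libraries compared. Of 11 STAT3 targets, 3 fell and 2 rose (median -0.15). The falls were FGB (-1.48, at a mean of 0.58 CPM), BCL2L1 (-0.41) and MCL1 (-0.24). The rises were the receptor IL6R (1.23, from a control mean of 2.11 CPM) and the kinase PIM1 (0.73).

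Genes of energy metabolism and ion transport gave mixed counts, where 11.3% of all genes rose and 10.8% fell. Of 34 nuclear genes of oxidative phosphorylation, 1 rose (NDUFS1, 0.40) and 0 fell. Of 33 glycolysis and hypoxia genes, 9 rose, among them PFKFB4 (0.69), NDRG1 (0.69) and BNIP3 (0.62), and 2 fell, PKM (-0.31) and PFKM (-0.26). Of 21 pumps and osmotic response genes, 6 fell and 1 rose, the potassium channel KCNK1 (0.98, adjusted p = 1.3e-07). SGK1, a kinase that regulates sodium transport, fell by 0.87. Of 30 ribosome biogenesis genes, 12 fell and 5 rose, with the rRNA processing factor RRP12 at 0.95 (0.55 in the numbered and 1.97 in the unnumbered libraries) and UTP20 at -0.79 (-0.51 and -1.65). The shorter lists gave 4 falls of 13 for YAP targets, 1 of 9 for hedgehog genes, 2 of 8 for breast cancer stem cell markers and 0 of 10 for EGFR family genes, with 0 rises in all 4, where 10.8% of all genes fell. Of 9 nuclear hormone receptors, THRA rose (0.44) and VDR fell (-0.35). The 13 genes of the mitochondrial genome were not analysed here.

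The response at 24 h was also set against that at 72 h, where both drug and control libraries are other cultures. Of the 154 genes past both cutoffs at 24 h, 150 were higher at 72 h at the adjusted p and 1 was lower, and 10 of the 11 falls were lower at 72 h. Of all 17227 genes tested over both times, 32.7% were higher with Sal at 72 h and 33% lower. The responses at the 2 times were compared directly in 1 fit of the 32 libraries with a batch term for each time point, over 17227 genes. In that test 2760 genes had a higher value at 72 h (16%) and 3565 a lower one (20.7%). Of the 1855 genes that rose at 24 h, 910 rose further and 51 had a lower value, and of the 1773 that fell, 1260 fell further.

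Sterol genes did not share in this increase. Their median log2 fold change was 0.80 at 24 h and 0.36 at 72 h. Of 25, 9 had a lower response at 72 h and 0 a higher one, where 20.7% and 16% of all genes did. SQLE went from 1.08 to 1.59 (adjusted p of the difference 0.015). In fatty acid synthesis SCD went from 1.11 to -0.23 (difference -1.35, SE 0.18, adjusted p = 8.2e-07) and FASN from 0.46 to -1.16 (adjusted p = 4.1e-06). ER genes went the other way, from a median of 0.47 to 1.69, with 21 of 30 higher at 72 h and 1 lower. HSPA5 went from 1.05 to 3.38 (difference 2.32, SE 0.32, adjusted p = 1.3e-06) and HSP90B1 from 0.19 to 1.71, while KDELR3 was at 2.97 and 3.02 and SEC24D at 1.88 and 2.07, differences of 0.04 (SE 0.35) and 0.18 (SE 0.21).

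Of the 37 ATF4 targets, 5 had a higher response at 72 h and 14 a lower one, where 16% and 20.7% of all genes did. DDIT3 rose further, from 1.71 to 3.80, and ATF3 from 0.89 to 2.73, whereas DDIT4 went from 1.16 to -0.13 (adjusted p = 9.5e-06) and ASNS from 0.59 to -0.21 (adjusted p = 1.7e-07). The cell cycle lists fell further: the median of mitosis genes was -0.60 at 24 h and -2.70 at 72 h with 31 of 32 lower, and that of DNA replication genes -0.27 and -1.23 with 30 of 38 lower. FOXQ1 went from -1.45 to -4.16 (difference -2.71, SE 0.22, adjusted p = 1.6e-10), CEMIP from -1.69 to -4.93 and LRRC4 from -2.24 to -7.41. LRRC4 was low already at 24 h, as given above, and its level at 72 h is not reported here. The size of its fall at 72 h is therefore uncertain. THBS1 did not fall further (-1.47 and -0.85, adjusted p of the difference 0.11).

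**Figure D4:**
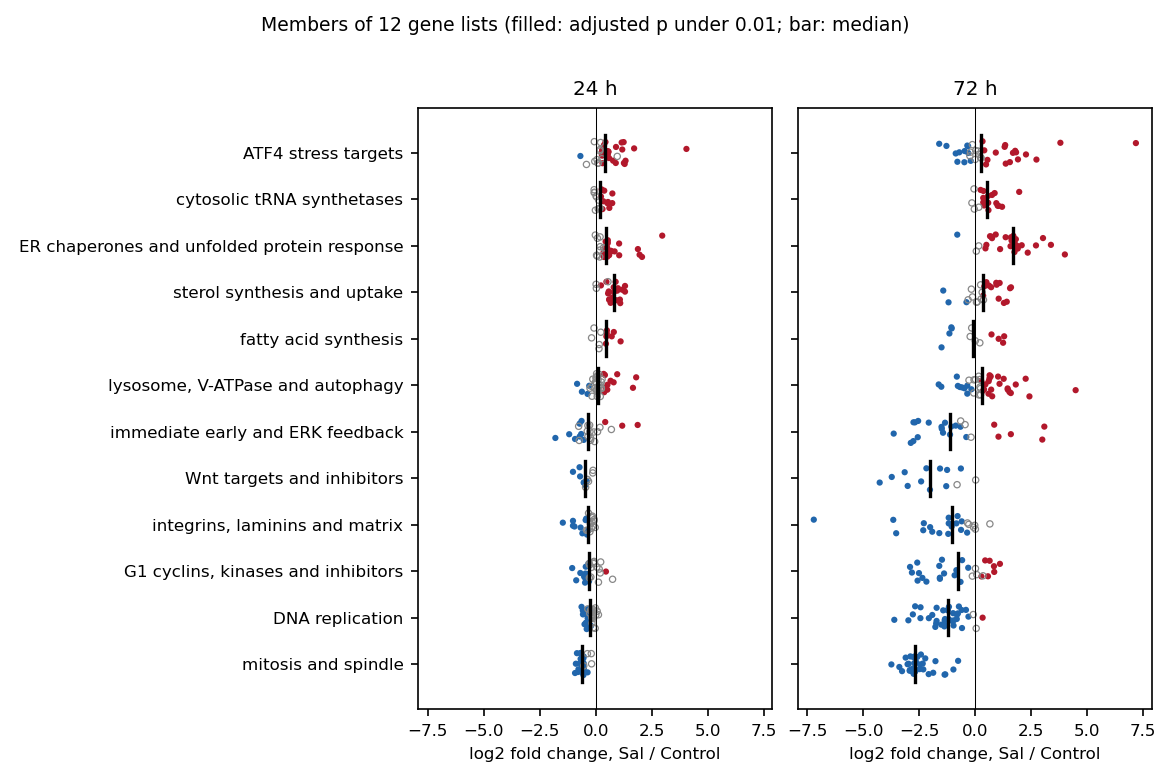
Log2 fold change of Sal over control for the members of 12 gene lists at 24 h (left) and 72 h (right), 1 point a gene; filled red and blue points rose and fell at an adjusted p under 0.01, open points did not pass, and the black bar is the median. The sterol median goes from 0.80 to 0.36, the ER median from 0.47 to 1.69 and the mitosis median from -0.60 to -2.70.

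Sal was last compared with Das at 24 h in the same fit, at the doses used, which differ (0.5 and 15 μM). Both responses were taken against the same control libraries, so their values are only set side by side. Of the genes tested, 2070 were higher with Sal than with Das (12.7%) and 1943 lower (11.9%), and 140 and 202 passed both cutoffs. Sterol genes hardly separated the drugs, with 0 of 25 higher and 2 lower with Sal, and HMGCS1 rose by 1.31 with Sal and 1.06 with Das (adjusted p of the difference 0.23). Of the ATF4 targets, 23 of 37 were lower with Sal and 1 was higher, CHAC1 at 1.26 with Sal and 1.80 with Das and ASNS at 0.59 and 1.30. ER genes were higher with Sal in 15 of 30 and lower in 1, such as HERPUD1 (2.07 and 1.33) and CALR (0.51 and -0.10). Mitosis, replication, and immediate early and ERK feedback genes were higher with Sal, that is less reduced or more raised than with Das, in 23 of 32, 19 of 38 and 16 of 25, with 0 lower in each. MUC4 and MFSD2A rose with Sal and not with Das, at 7.48 and 0.25 for MUC4 and 2.96 and 0.21 for MFSD2A, and these differences passed the test (adjusted p = 2.6e-09 and 1.9e-10). MYC fell by 0.87 with Sal and stood at -0.02 with Das (adjusted p = 1.2e-06), and CCND1 was at -1.05 and -1.30 (adjusted p = 0.037).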

How the data were processed

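Messenger RNA of MDA-MB-468 cells was sequenced from 32 libraries, 4 for each of 8 conditions, as single-end reads (TruSeq kit, HiSeq4000). The authors deposited a table of raw counts per gene, with no normalisation. The submitters' processing notes name bcl2fastq (2.19), STAR (2.5.2), Cufflinks (2.1.1), DESeq2 and the GRCh37 build. The counting program, its annotation and its use of strand are not given in the sources used here. Gene symbols and coordinates came from an annotation of the same build, which matched 46537 of 48804 gene IDs.

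Counts were tested with edgeR (4.0.16, R 4.3.3) by the quasi-likelihood method after TMM scaling and filterByExpr with a minimum count of 10. The fit held the 16 libraries of 24 h, 1 mean for each treatment and a batch term for the unnumbered libraries. With unequal responses that fit averages over the batches. Responses of the numbered and unnumbered libraries were separated, and their difference tested, in a fit with 1 mean for each treatment in each batch, where the lone unnumbered library of a condition is assumed to vary like the numbered ones. The responses at 72 h came from a fit of all 32 libraries with a batch term for each time point. P-values were adjusted over all genes of a fit by the Benjamini-Hochberg method and called under 0.01, and both cutoffs also ask for an absolute log2 fold change above 1.5. On simulated counts for 16357 genes, the test of Sal against control found 90 of 100 genes changed by a log2 fold change of 1 and 100 of 100 changed by 2, and called 0 unchanged genes. That of the batch difference found 49 of 100 and 93 of 100 and called 2 unchanged genes. The changed genes were drawn only from genes above a minimum mean count, so the lowest genes are not covered. The simulated spread followed the trend with level, and the unchanged genes had no difference between the batches in their response. How often either test misses or miscalls genes in the measured libraries was not tested. There, 2212 genes had a Sal response that differed between the batches. P-values measure the spread between these libraries, and the exact intervals cover counting error only.

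The text names the 12 largest rises and 8 largest falls among genes of at least 1 CPM that passed the adjusted p and moved the same way in every library of the same number. It also names up to 6 called members of each list, up to 3 uncalled defining members, ESR2 and LRRC4, and the genes with the smallest adjusted p for a batch or time difference. Further members were named with their values known. The members and the lists were chosen with earlier results of these data known, and a list is described by its counts and median beside those of all genes. Alternatives were fits with no batch term, a replicate block, numbered libraries only, DESeq2 (1.42.0) size factors or test, no filter, other sets of libraries, a lower fold cutoff and each library left out. Promoter sequences are from RefSeq. Some list members are not reported here by name.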

Additional observations from a re-analysis of the deposited data

Results flagged for a closer look

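Within each group of 4 libraries, a highest or lowest value was marked when its gap to the nearest other value was unusually large against the group's range (Dixon's criterion). Over 52 genes and both groups, 27 of 104 groups had such a library. Chance marks about 1 in 20 groups, but the genes share the same 8 libraries and some were chosen for a difference between the batches, so that the count is only a description. The marked library was the unnumbered Sal library in 16 and the unnumbered control in 11, and never a numbered one.

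The unnumbered Sal library was far above the other 3 for MUC4 (22.9 CPM), DQX1 (14.6 CPM), KDELR3 (198 CPM), MFSD2A (191 CPM), HSPA5 (1490 CPM), HSP90B1 (1410 CPM) and FGF21 (2.78 CPM). The same held for DDIT3 (69.4 CPM), ATF3 (48.0 CPM), FOSB (56.8 CPM), DUSP1 (50.4 CPM), FTL (576 CPM), NPRL2 (121 CPM) and TMEM40 (98.4 CPM). It was far below the others for ATF5 (14.7 CPM) and KIF20A (97.8 CPM). The unnumbered control was far above the other controls for THBS1 (185 CPM), HMGCS1 (339 CPM), MVD (330 CPM), INSIG1 (87.8 CPM), HSPA5 (379 CPM), CHAC1 (17.1 CPM), ASNS (127 CPM), WIPI1 (33.1 CPM) and CXCL8 (11.3 CPM). It was far below them for CALR (1090 CPM) and PLK1 (194 CPM).

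The Sal response differed between the unnumbered pair and the numbered libraries in 2212 genes (edgeR's quasi-likelihood test, adjusted p under 0.01), 1099 with the higher value in the unnumbered pair and 1113 with the lower. Genes among those with the smallest adjusted p were HSPA5 (difference 1.27 on the log2 scale), FTL (1.11), NPRL2 (1.98), TMEM40 (1.63) and DHDDS (1.14). DUSP1 (1.96) and FTL had the same adjusted p (5.6e-06). NPRL2, a subunit of an inhibitor of mTORC1 signalling, had 18.1, 16, 18.3 and 17.5 CPM in control and 121, 28.6, 26.3 and 32.9 with Sal. DHDDS, which makes the dolichol backbone for protein glycosylation, had 79.8, 96.7, 99.1 and 100 CPM in control and 434, 238, 228 and 263 with Sal, so that all Sal libraries lay above all controls.

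The response differed between 72 h and 24 h in 2760 genes with the higher value at 72 h and in 3565 with the lower. Among the largest rises and falls of 24 h, the differences with the smallest adjusted p were further falls, of CEMIP (-3.23), the lncRNA ENSG00000259362 (-2.76), FOXQ1 (-2.71), C11orf86 (-4.22) and HPDL (-3.02).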

How the results depend on the processing

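Of 155 named genes past the adjusted p, 0 changed direction under the alternatives run. They had passed the main fit and the alternatives drew on the same libraries, so that count says little about direction. With the DESeq2 test, 2084 genes rose and 2213 fell at the adjusted p alone. Without the batch term, 1 gene fell past both cutoffs (11 with it), 745 rose and 364 fell at the adjusted p alone (1855 and 1773), and 90 genes were higher with Sal than with Das past both cutoffs (140). The falls past both cutoffs were 5 with numbered libraries only, 7 with only the 8 libraries compared and 19 with no filter. With an absolute fold change above 1.5 in place of the log2 cutoff, 915 genes rose and 498 fell. In the fit of all 32 libraries, 780 genes fell at the adjusted p alone. The batch difference was called in 1017 genes with only the 8 libraries compared. Leaving out 1 library at a time gave 106 to 177 rises and 4 to 25 falls past both cutoffs, 1468 to 1927 rises and 1046 to 1777 falls at the adjusted p alone, and 1539 to 3075 batch differences, the last chosen after seeing the data. Of these 155 genes, 78 lost their call without the batch term, 32 with all 32 libraries, 15 of 153 with only the 8 libraries, 2 with the DESeq2 test, 0 with its size factors and up to 20 when 1 library was left out. The cause was not tested.

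Libraries with the same number from 1 to 3 did not deviate together, with correlations from -0.104 to 0.116, so the numbers do not pair them. With the replicate block in place of the batch term, 150 genes rose and 10 fell past both cutoffs, and 1630 and 1425 at the adjusted p alone. Under the block, 532 and 1048 genes differed between the time points and 135 and 199 between the drugs past both cutoffs. At this depth, ESR2 with 0 to 9 counts a library was too low for a small difference to be detected. A large rise from such a level was detected for FGF21, which had 0 to 3 counts in control and 6 to 102 with Sal.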

Other observations

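Genes of transport between the ER and the Golgi rose with Sal at 24 h. They were grouped into 7 lists written after the values of some members had been seen, so their counts are a description with no test of the lists. Of 67 members tested, 52 rose and 0 fell (edgeR's quasi-likelihood test, adjusted p under 0.01), beside 11.3% of all genes that rose, with a median log2 fold change of 0.66. The median was 0.53 in the numbered libraries, where 49 rose, and 0.91 in the unnumbered pair. In 17 members the response differed between the batches, beside 13.5% of all genes. At 72 h the median was 1.11. At 24 h, 38 members were higher with Sal than with Das, beside 12.7% of all genes.

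ARF4, a small GTPase that recruits coats at the Golgi, had 155, 171, 157 and 159 CPM in control (unnumbered, then replicates 1 to 3) and 1280, 733, 765 and 794 with Sal (log2 fold change 2.46, SE 0.12, adjusted p = 1.9e-11). CREB3, a transcription factor that is released by cleavage in the Golgi, had 143, 132, 134 and 136 CPM in control and 657, 364, 318 and 407 with Sal (log2 fold change 1.64, adjusted p = 5.9e-10), while the other 3 members of its family tested did not rise. Of the COPI coat, which carries proteins back to the ER, 6 of 8 rose. COPA went from 430, 399, 411 and 419 CPM to 1221, 939, 907 and 994 (log2 fold change 1.29), and COPG1 rose by 1.37, whereas its paralogue COPG2 stood at -0.27 (adjusted p = 0.028). Of the COPII coat, which carries cargo out of the ER, 12 of 14 rose, SEC31A by 1.38. Of the golgins, which tether vesicles, 13 of 14 rose, of the SNAREs 7 of 8, of the ARF GTPases and their regulators 7 of 11 and of the COG complex 6 of 8, led by COG6 (1.84) and COG3 (1.34). SEC24D, described above, belongs to the COPII list as well.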
